A study of Mus musculus with 12 samples.

Results

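The genes described here are 10 genes of de novo lipogenesis, the route by which cells make fatty acids from acetyl-CoA. They were picked by gene symbol from the 27825 genes of the deposited table, and each symbol matched 1 row. The 10 were chosen by name with the levels of these genes in the 4 groups already known, so those levels and their changes are given as a description. Adjusted p-values are shown only to place a member among all genes tested. Counts of members set beside shares of all genes depend on how the list was put together. They are description and no test of the list.

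The series measured messenger RNA by bulk RNA-seq in sorted endothelial cells, the cells that line blood vessels. All mice were males of the genotype ROSA26-eYFP+/+ Cdh5-CreERT2+, in which Cre recombinase is driven by the promoter of the endothelial cadherin gene and becomes active with tamoxifen, so that a yellow fluorescent reporter marks the cells in which it acted. Every group, controls included, ate tamoxifen food for 2 weeks from 6 weeks of age. At 8 weeks the mice went on normal chow (NC, 5.8% fat) or a high fat diet (HFD, 60% fat) for 12 to 13 weeks. Cells came from mesentery (Mes), a sheet of tissue that holds the gut and its arteries, or from the fat pads of the epididymis (Epi). The tissue was digested in actinomycin D, which blocks transcription, and each sample pooled 6 mice before live fluorescent cells were sorted. The 12 libraries form 4 groups of 3, named Mes NC, Mes HFD, Epi NC and Epi HFD, with the letters A, B and C. The sample descriptions also number the libraries. In both tissues the chow libraries A, B and C are 50, 51 and 87, and the HFD libraries A, B and C are 88, 52 and 53. The protocol speaks of 2 independent replicates while the titles give 3 letters, and nothing states how these relate, so p-values measure only the spread between these libraries.

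De novo lipogenesis is best known from liver and fat cells, where it is high after carbohydrate feeding and low when dietary fat is plentiful. Citrate leaves the mitochondrion and is split to acetyl-CoA by ATP citrate lyase (Acly), acetyl-CoA carboxylase (Acaca) makes malonyl-CoA, and fatty acid synthase (Fasn) joins these units into palmitate with NADPH that malic enzyme (Me1) helps to supply. Elovl6 lengthens palmitate, and the desaturases Scd1 and Scd2 put in a double bond. The transcription factors encoded by Srebf1 (SREBP-1) and Mlxipl (ChREBP) drive these genes, and Thrsp encodes Spot 14, a small acidic protein linked to lipogenic activity.

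The promoters of Fasn, Thrsp and Srebf1 are shown because these members, with Scd1, passed the test between groups in at least 1 comparison. The RefSeq promoter table (GRCm38.p6, an older build than the mm39 of the submitters' processing notes, used for sequence only) held 8 of the 10 members in 12 entries. Scd1 and Scd2 had no entry. Each sequence is the 250 bases before a start, and the last base printed adjoins it. Capitals mark matches, on either strand, to CCAAT (the box bound by NF-Y, which reads ATTGG on the opposite strand) or GGGCGG (the GC box, CCGCCC on the opposite strand), with TCACNCCAC (a sterol response core) and CACGTG (an E-box) also searched.
Fasn, chr11:120824548-120824797, minus strand: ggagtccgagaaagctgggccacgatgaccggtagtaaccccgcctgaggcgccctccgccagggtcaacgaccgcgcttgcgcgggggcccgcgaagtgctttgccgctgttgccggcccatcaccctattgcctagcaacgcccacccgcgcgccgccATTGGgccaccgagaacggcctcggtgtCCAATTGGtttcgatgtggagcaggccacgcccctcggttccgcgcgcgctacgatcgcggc
Thrsp, chr7:97417551-97417800, minus strand: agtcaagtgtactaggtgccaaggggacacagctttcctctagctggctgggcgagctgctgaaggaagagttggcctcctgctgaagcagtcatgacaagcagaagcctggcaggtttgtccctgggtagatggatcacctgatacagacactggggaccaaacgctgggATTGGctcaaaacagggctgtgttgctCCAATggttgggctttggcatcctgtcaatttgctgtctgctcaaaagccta
Srebf1, chr11:60210472-60210721, minus strand, the one of its 3 entries with the most matches: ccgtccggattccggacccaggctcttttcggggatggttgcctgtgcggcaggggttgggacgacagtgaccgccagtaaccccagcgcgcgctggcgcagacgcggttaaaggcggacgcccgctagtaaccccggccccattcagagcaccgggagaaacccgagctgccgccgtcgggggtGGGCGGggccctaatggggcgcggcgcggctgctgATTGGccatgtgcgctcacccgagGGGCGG

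In the Fasn promoter CCAAT was found 3 times, and 2 of these matches, on opposite strands, overlap in the longer run of capitals. One begins 62 bases before the start and the other 59, and the third begins 90 bases before it. The Thrsp promoter held it 2 times, beginning 52 and 79 bases before the start. Among members, CCAAT was found for Fasn, Thrsp, Srebf1, Me1 and Mlxipl, in 6 of the 12 entries, and it was present in 33.8% of all 32851 promoters of the same length in the table. GGGCGG was found for Srebf1, Acly, Me1 and Mlxipl, in 5 of the 12 entries, against 32.7% of all promoters. TCACNCCAC was found for Mlxipl alone, against 1.05% of all promoters, and CACGTG for Mlxipl alone, against 6.02%. These matches are letters in a window, not measured binding.

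Library totals ran from 8348897 to 25397963 reads assigned to listed genes. Markers of other cells than endothelium were present in all 12 libraries. Normalized counts are reads divided by the size factor of their library. In these counts the 10 endothelial markers summed to 109678 to 159052 in Mes NC and 104574 to 123606 in Mes HFD. They summed to 80217 to 97226 in Epi NC and 44116 to 85092 in Epi HFD, and none of the 10 was at 0 in a group. The 12 adipocyte markers, none of them a member and none at 0 in a group, summed to 68890 to 92804 in Epi NC against 4845 to 15996 in Epi HFD, 5168 to 7756 in Mes NC and 5373 to 10879 in Mes HFD. Much of the Epi NC sum came from 1 gene, Cfd, the adipocyte protease adipsin. Its mean was 50379 in Epi NC and 1161 in Epi HFD. The means in these groups were 6544 and 1186 for Adipoq, 7123 and 3581 for Cidec and 899 and 279 for Plin1, all among the 12. The 10 macrophage markers summed to 6218 to 85806 in Epi NC and 137638 to 345367 in Epi HFD, and to 1586 to 8538 in Mes NC and 4927 to 24845 in Mes HFD. Pancreatic acinar markers summed to 22748 to 161916 in the mesentery libraries and to at most 82.1 in epididymal fat. In bulk samples, fewer cells of a type and less RNA per cell cannot be told apart. Mes NC C stood apart from its group in several members: it was the highest of the 3 for 9 of the 10, all but Thrsp, with the lowest acinar sum of the mesentery libraries and the highest adipocyte and macrophage sums of Mes NC. Epi NC C, which carries the same number 87, was also the highest of its group for Fasn, Me1, Acaca, Acly, Elovl6 and Mlxipl. It was the lowest of its group for Scd1, Scd2 and Srebf1, and the highest for Thrsp.

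Fasn (ENSMUSG00000025153), the enzyme that builds palmitate, was lower on high fat diet in both tissues. Its normalized counts in Epi NC were 925 in A, 1232 in B and 2098 in C, and in Epi HFD they were 107, 196 and 165 in the same order. The Mes NC libraries held 389, 356 and 1090, and the Mes HFD libraries 115, 63.8 and 132. In each tissue all 3 HFD libraries lay below all 3 chow libraries. The group means were 1418 ± 608 (SD, n = 3) in Epi NC, 156 ± 45.2 in Epi HFD, 612 ± 414 in Mes NC and 104 ± 35.7 in Mes HFD. On the log2(normalized count + 1) scale used for all changes, Fasn fell by 3.14 in epididymal fat (SE 0.44, 8.80-fold lower, limma adjusted p = 0.00802). In mesentery the difference was -2.41 (SE 0.44, 5.33-fold lower), and it did not pass the threshold of 0.05 (limma adjusted p = 0.179).

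Thrsp (ENSMUSG00000035686) had the highest level of the 10 per length of exon in every group. Its values were 12348, 13822 and 18264 in Epi NC and 1324, 3524 and 2111 in Epi HFD. In mesentery they were 8957, 10539 and 8543 on chow and 7321, 5883 and 5420 on high fat diet. The diets did not overlap in either tissue, and the Epi HFD libraries were the 3 lowest of all 12. Thrsp fell by 2.77 in epididymal fat (SE 0.30, 6.81-fold lower, limma adjusted p = 0.00215), while the difference in mesentery was -0.60 (SE 0.30, limma adjusted p = 0.851).

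**Figure D1:**
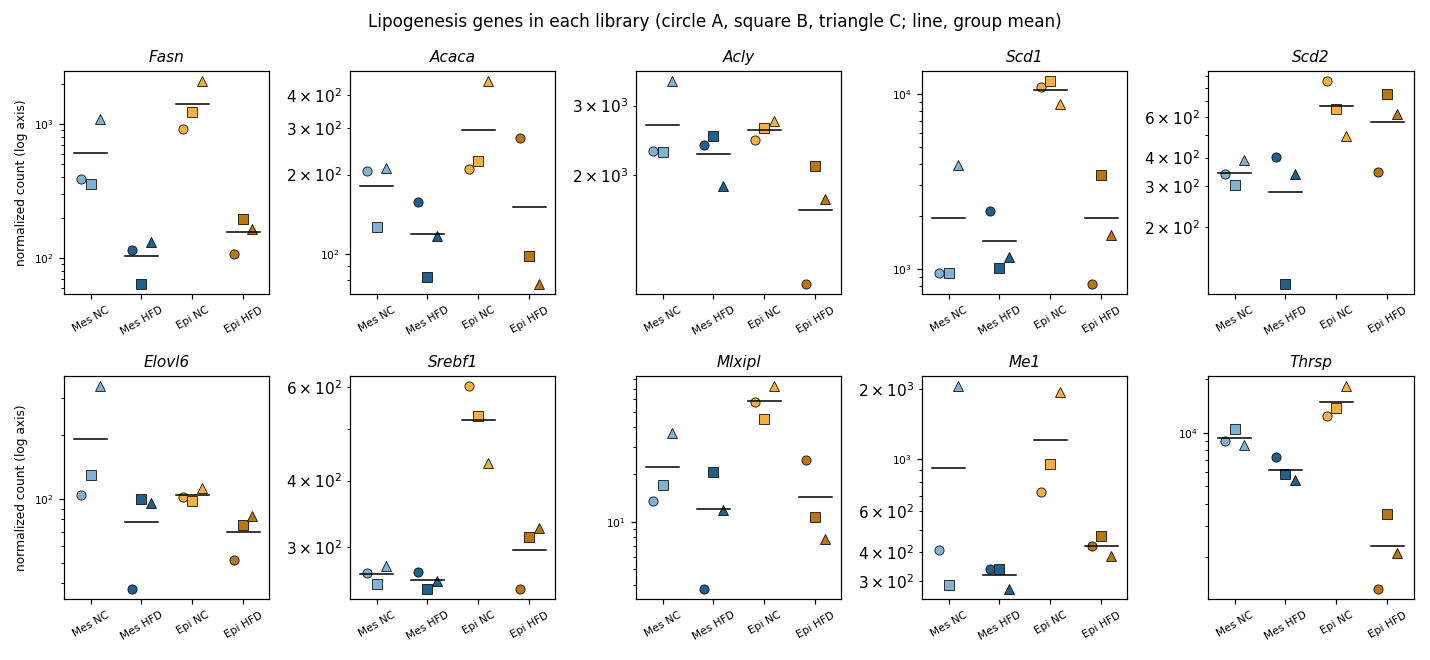
Normalized counts of the 10 genes in each of the 12 libraries, on a log axis that differs between panels. Circles, squares and triangles are libraries A, B and C, and lines are group means of 3 libraries. For Fasn the 3 Epi HFD libraries lie between 107 and 196 and the 3 Epi NC libraries between 925 and 2098.

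Upstream of the synthase, the fitted diet differences of the carbon and NADPH enzymes were smaller in size than those of Fasn in both tissues, though differences between genes were not tested. Acly, which splits citrate, had 2456, 2631 and 2743 in Epi NC and 1061, 2105 and 1740 in Epi HFD. Its mesentery values were 2304, 2288 and 3463 on chow and 2383, 2506 and 1881 on high fat diet. The Acly diets separated in epididymal fat (log2 difference -0.73, SE 0.25) and overlapped in mesentery (-0.23), and neither passed the threshold. Acaca, the carboxylase of the committed step, had 210, 226 and 452 in Epi NC and 275, 98.3 and 77.1 in Epi HFD, so that Epi HFD A lay above A and B of the chow group. In mesentery Acaca had 207, 126 and 211 on chow and 158, 81.8 and 118 on high fat diet, which overlap too. Me1, the cytosolic malic enzyme, had 723, 953 and 1946 in Epi NC and 425, 472 and 386 in Epi HFD, with no overlap. Its mesentery values were 408, 290 and 2063 on chow and 340, 338 and 278 on high fat diet. The 3 high fat diet libraries lay close together in both tissues, and Mes NC C was 7.10 times Mes NC B. Log2 differences with diet in epididymal fat were -1.37 (SE 0.56) for Me1 and -1.11 (SE 0.47) for Acaca, and in mesentery -0.98 for Me1 and -0.62 for Acaca. None of these passed the threshold.

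The desaturases and the elongase act on the product of Fasn. Scd1 (ENSMUSG00000037071) set Epi NC apart from all other groups, with 10966, 11865 and 8724 there. It had 821, 3449 and 1561 in Epi HFD, 947, 952 and 3934 in Mes NC and 2134, 1019 and 1174 in Mes HFD. The lowest Epi NC library was above the highest library of each other group, and those 3 other groups overlapped one another. The Scd1 diet difference in epididymal fat was -2.67 (SE 0.55, 6.35-fold lower, limma adjusted p = 0.0551), just outside the threshold, against -0.16 (SE 0.55) in mesentery. Without Epi HFD B, the library with the highest Scd1 of that group, the adjusted p was 0.0201, and it was 0.0126 without Mes NC C. Over the 21 alternative settings it ran from 0.0126 to 0.295. Scd2, a related desaturase, had 857, 647 and 494 in Epi NC and 346, 756 and 614 in Epi HFD, which overlap. Scd2 values in mesentery were 338, 306 and 390 on chow and 400, 114 and 338 on high fat diet. Elovl6 had 102, 97.3 and 112 in Epi NC and 51.7, 75.2 and 82.8 in Epi HFD, with no overlap. In Mes NC it had 105, 129 and 341, and in Mes HFD 37.4, 99.8 and 95.8, where the highest of the HFD group lay just below the lowest of the chow group. The log2 differences with diet in epididymal fat were -0.59 (SE 0.48) for Elovl6 and -0.26 (SE 0.42) for Scd2, and in mesentery -1.22 and -0.46, none past the threshold. Scd3 and Scd4 are close copies of these desaturases, and the way reads shared among them were assigned is not given in the sources used here. They held 4.55 to 134.8 and 0 to 25.9 normalized counts. Per kilobase of exon, Scd3 reached at most 38.0 and Scd1 was at least 169.8 in every library.

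Of the regulators, Srebf1 (ENSMUSG00000020538) had the smallest spread between libraries of the 10 in both mesentery groups. Its values were 268, 255 and 276 in Mes NC and 269, 249 and 259 in Mes HFD. In Epi NC they were 603, 530 and 431, and in Epi HFD they were 250, 313 and 326. All 3 Epi NC libraries stood above the other 9, while Epi HFD overlapped both mesentery groups. The diet difference of Srebf1 in epididymal fat was -0.81 (SE 0.20, limma adjusted p = 0.116), and in mesentery it was -0.04 (SE 0.20). Mlxipl was the scarcest member, with 57.2, 45.2 and 72.5 in Epi NC and 24.7, 10.7 and 7.79 in Epi HFD. Mesentery held 13.7, 17.0 and 36.6 on chow and 3.74, 20.8 and 11.9 on high fat diet, of which the lowest rests on 4 reads. The diets did not overlap in epididymal fat (-2.07, SE 0.79) and overlapped in mesentery (-0.97, SE 0.79), with neither past the threshold.

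With high fat diet in epididymal fat all 10 members were lower in the group mean of log2 values (Scd2 turned to 0.07 without Epi HFD A), and 2 of them, Fasn and Thrsp, passed the threshold. Over all 22238 genes tested, 0.549% passed in either direction and 0.13% passed as lower. The libraries of the 2 diets did not overlap for 8 members, all but Acaca and Scd2, against 6.57% of all genes lower without overlap. At an unadjusted p under 0.05, 8 members were lower, all but Scd2 and Elovl6, against 3.09% of all genes. The median log2 difference of the members was -1.24, beside 0.10 over all genes tested. With the columns rescaled to one total the median of all genes moved by -0.13, all 10 members stayed lower, and the calls over all genes changed from 93 higher and 29 lower to 67 higher and 42 lower. Fasn and Thrsp passed in all 21 alternative settings, with adjusted p of at most 0.0479 and 0.0298. All 12 adipocyte markers were lower in the same contrast, with a median of -1.73. At an unadjusted p under 0.05 there were 10 of them, and limma called 4, edgeR 3 and DESeq2 8. All 10 macrophage markers were higher by sign (median 2.95) and 9 of the 10 endothelial markers lower (median -0.53), with none past the threshold in limma or edgeR, 8 and 4 of them at an unadjusted p under 0.05, and 2 and 1 called by DESeq2. Of the 7 fibroblast markers 6 were higher (median 1.80), 2 of them past the threshold in limma and 4 in DESeq2, and all 6 smooth muscle and pericyte markers were lower by sign (median -1.03), none past it in limma. Adipoq, the adipocyte hormone adiponectin, fell by 2.65 (SE 0.40, limma adjusted p = 0.00944). The part of these cell types in the members' differences was not tested. Within Epi HFD, library A had the lowest adipocyte sum and B the highest, and Fasn, Thrsp, Scd1, Scd2 and Acly were also lowest in A and highest in B. Of the other members in Epi HFD, Srebf1 and Elovl6 were lowest in A and highest in C, Me1 was highest in B and lowest in C, and Acaca and Mlxipl were highest in A and lowest in C. Within Epi NC, C had the lowest adipocyte sum and B the highest. Scd1 had that order too, and Scd2 and Srebf1 were also lowest in C, whereas Fasn, Thrsp, Me1, Acaca, Acly, Elovl6 and Mlxipl were highest in C.

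**Figure D2:**
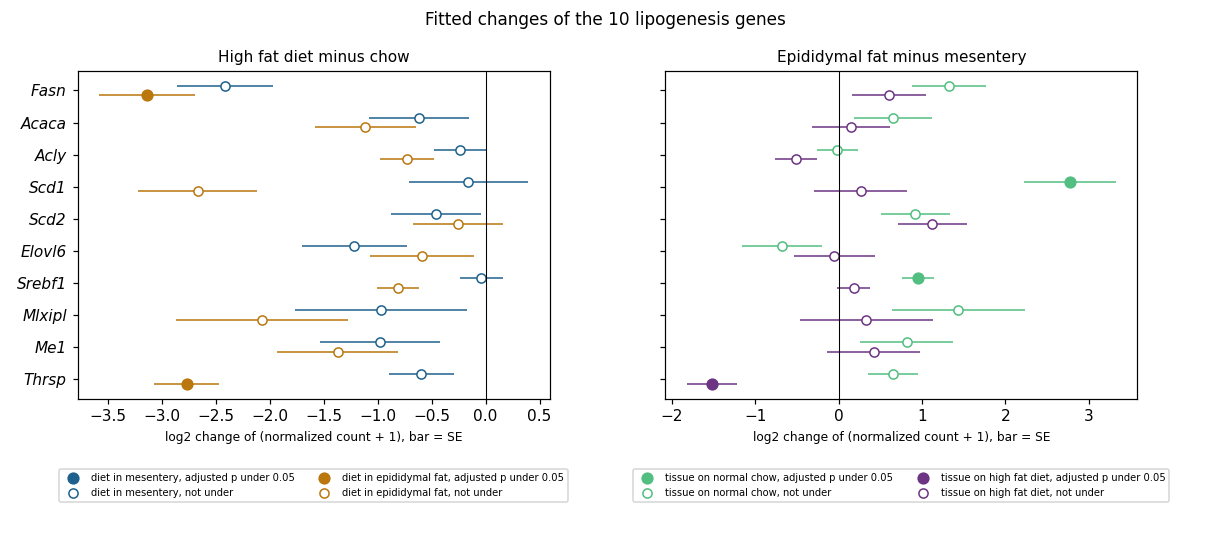
Fitted log2 changes of the 10 genes with diet in each tissue (left) and between tissues on each diet (right). Points are differences of group means of log2(normalized count + 1), bars are SE, and filled points have a limma adjusted p under 0.05. All points of the left panel lie below 0 (Srebf1 in mesentery is at 0.10 with the columns rescaled), with Fasn (-3.14) and Thrsp (-2.77) filled in epididymal fat.

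In mesentery all 10 members were lower on high fat diet by sign, but not under every setting (Srebf1 was at 0.10 with the columns rescaled, and Scd1 at 0.52 without Mes NC C). None passed the threshold in limma or edgeR. DESeq2 called 1, Fasn, with an adjusted p of 0.000216, beside 0.683% of all genes it tested, and over the alternatives that value ran up to 0.565, which was reached without Mes HFD A. Of all genes tested 0.0135% passed in limma. At an unadjusted p under 0.05 there were 2 members, Fasn and Elovl6, against 6.15% of all genes, and 3 members, Fasn, Elovl6 and Thrsp, were lower without overlap, against 5.14% of all genes. The median difference of the members was -0.61, beside -0.00 over all genes. Rescaling the columns moved the median of all genes by 0.12. The direction of 4 members depended on the setting: beside Srebf1, Scd1 turned to 0.52 without Mes NC C, 0.05 without Mes HFD B and 0.20 with only the libraries numbered 50 to 53, Scd2 to 0.10 without Mes HFD B, and Mlxipl to 0.04 with only the libraries numbered 50 to 53. Of the 12 adipocyte markers 8 were higher on high fat diet, 4 of these at an unadjusted p under 0.05 and 1 past the threshold. The other 4 were lower, 2 of these at an unadjusted p under 0.05. DESeq2 called 4 of the 12 higher, namely Cidec, Lep, Pck1 and Plin4, and 0 lower, and edgeR called 0. Adipoq differed by 0.81 (SE 0.40, limma adjusted p = 0.849) and Cfd by -1.32 (SE 0.46, limma adjusted p = 0.657). All 10 macrophage markers were higher by sign here as well (median 1.97, 6 at an unadjusted p under 0.05, none called in limma or edgeR and 1 in DESeq2), and their part was not tested. Without Mes NC C, the library with the highest Fasn and Me1, the diet difference in mesentery was -1.90 for Fasn (limma adjusted p = 0.104), -0.12 for Me1 and 0.52 for Scd1. The fit with only the libraries numbered 50 to 53 also left out Mes NC C, along with Mes HFD A. There the diet difference in mesentery was -2.01 for Fasn, -0.25 for Elovl6 and -0.17 for Me1.

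**Figure D3:**
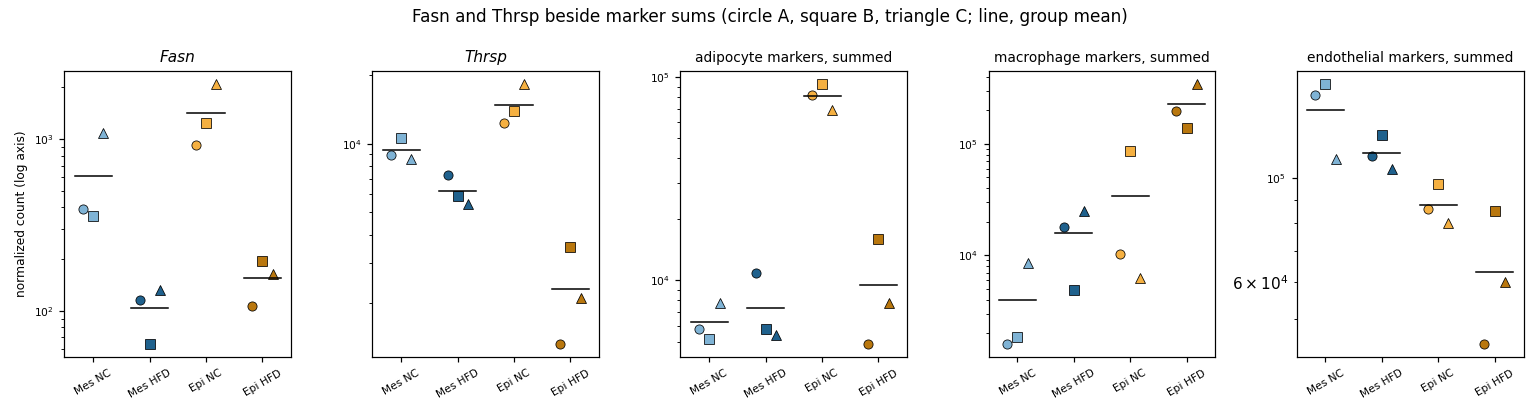
Normalized counts of Fasn and Thrsp beside the summed normalized counts of adipocyte, macrophage and endothelial markers in each library, on log axes. Circles, squares and triangles are libraries A, B and C, and lines are group means. Epi NC has the highest adipocyte sums (68890 to 92804). In mesentery the adipocyte sums of the diets overlap, but their genes moved in different directions. From Mes NC to Mes HFD the mean of Cfd went from 2863 to 1144, that of Cidec from 607 to 2208 and that of Adipoq from 569 to 982. The part of these cell types in the Fasn difference was not tested.

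Whether diet acted differently in the tissues was tested with the interaction, the diet difference in epididymal fat minus that in mesentery. No member passed in limma or edgeR, and 0.0045% of all genes passed in limma. Thrsp had -2.17 (SE 0.42, limma adjusted p = 0.185), Scd1 -2.51 (SE 0.78, 0.661) and Srebf1 -0.77 (SE 0.28, 0.856). These 3 were the members with an unadjusted p under 0.05, against 4.71% of all genes. DESeq2 called 1 member, Thrsp (adjusted p = 0.000823), beside 0.592% of all genes it tested, and limma called it without Epi HFD B (-2.53, adjusted p = 0.0205), with a range over the alternatives of 0.000823 to 0.644. With only the libraries numbered 50 to 53, the Thrsp value was -1.48 (limma adjusted p = 0.276). For Fasn the interaction was -0.72 (SE 0.63, limma adjusted p = 1.00). All 12 adipocyte markers were lower in the interaction at an unadjusted p under 0.05, with Adipoq at -3.45 (SE 0.56, limma adjusted p = 0.151). Of the 12, limma and edgeR called 0 and DESeq2 called 8, all lower. The part of adipocytes in the members' values was not tested.

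On normal chow, Scd1 and Srebf1 were higher in epididymal fat than in mesentery. Scd1 was higher by 2.77 (SE 0.55, 6.83-fold, limma adjusted p = 0.00513) and Srebf1 by 0.95 (SE 0.20, 1.94-fold, limma adjusted p = 0.00602), and both passed in all 21 alternatives, with adjusted p of at most 0.0308 and 0.0398. These were 2 of 10 members, against 12.8% of all genes in either direction and 7.32% as higher. The tissues did not overlap, with epididymal fat higher, for Scd1, Scd2, Srebf1, Mlxipl and Thrsp, which is 5 members against 16% of all genes. Fasn differed by 1.33 (SE 0.44, limma adjusted p = 0.0683), Mlxipl by 1.44, Scd2 by 0.92, Me1 by 0.82 and Thrsp and Acaca by 0.65 each. Acly and Elovl6 were at -0.01 and -0.68, and rescaling the columns turned Acly above 0. Without Mes NC C the count of members past the threshold was 4, as Fasn (1.84, adjusted p = 0.00674) and Me1 (1.68, adjusted p = 0.00503) joined, beside 15.4% of all genes in that fit. Over all 21 alternatives the adjusted p of Fasn ran from 0.00674 to 0.233 and that of Me1 from 0.00503 to 0.776. Fasn also passed with a replicate block (0.0235), the number range as a covariate (0.0424), a minimum mean of 50 (0.0456) and only the libraries numbered 50 to 53 (0.0123). The calls over all genes went from 1627 higher and 1216 lower to 1935 and 940 on rescaling. Adipocyte markers moved with this contrast too, 11 of 12 higher past the threshold with a median of 3.62, and Adipoq rose by 3.57 (SE 0.40). Other cell types differed as well: 4 of 4 red blood cell markers (median 6.76), 6 of 7 fibroblast, 5 of 6 smooth muscle and pericyte, 4 of 5 mesothelial and 4 of 10 macrophage markers were called higher, and 7 of 7 pancreatic acinar and 5 of 10 endothelial markers lower. Their part in the tissue differences of the members was not tested.

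Between tissues on high fat diet, 1 member passed the threshold. Thrsp differed by -1.52 in epididymal fat against mesentery (SE 0.30, 2.87-fold lower, limma adjusted p = 0.00710), and it passed in all 21 alternatives with an adjusted p of at most 0.0479. That is 1 of 10 members, against 8.34% of all genes in either direction and 3.43% as lower. Thrsp was also the only member lower without overlap, and Me1 the only one higher without overlap. Of all 22238 genes tested, 2500 were lower and 3366 higher without overlap. Scd1 differed by 0.26 (SE 0.55), Srebf1 by 0.18 (SE 0.20), Fasn by 0.60 (SE 0.44), Mlxipl by 0.33 and Scd2 by 1.12 (SE 0.42, limma adjusted p = 0.128). Over all alternatives 5 members changed sign in this contrast, Scd1 among them (-0.27 without Epi HFD B). Rescaling moved the median of all genes by -0.17, turned the signs of Acaca and Srebf1, and changed the calls over all genes from 1092 higher and 762 lower to 694 and 1267. Adipoq differed by 0.12 (SE 0.40) in this contrast, and 1 of the 12 adipocyte markers passed, as lower. Called as higher in epididymal fat were 8 of 10 macrophage, 7 of 7 fibroblast, 4 of 4 red blood cell and 4 of 6 smooth muscle and pericyte markers, and as lower 7 of 7 pancreatic acinar and 6 of 10 endothelial markers, whose part in the members' values was not tested. Each group serves in 2 of these comparisons, Epi NC in the diet and the tissue contrast for example, so they share libraries and are given side by side.

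Levels of different genes were compared per kilobase of exon, with exon lengths from GENCODE vM21. On this scale Thrsp was first in every group, with 11599 normalized counts per kilobase in Epi NC, 7319 in Mes NC, 4861 in Mes HFD and 1816 in Epi HFD. Scd1 was second in both epididymal groups (2177 on chow and 402 on high fat diet) and Acly second in both mesentery groups (582 and 490). Me1 ranked 4 in all groups and Mlxipl last in all. Fasn ranked 5 in Epi NC (141 per kilobase), 7 in Mes NC (60.9), 8 in Epi HFD (15.5) and 9 in Mes HFD (10.3). Neighbours in these orders often overlapped: in Mes NC the means of Scd2, Srebf1 and Fasn were 63.2, 61.9 and 60.9, and in Mes HFD those of Elovl6, Acaca and Fasn were 12.7, 12.5 and 10.3, all within the spread of the libraries.

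**Figure D4:**
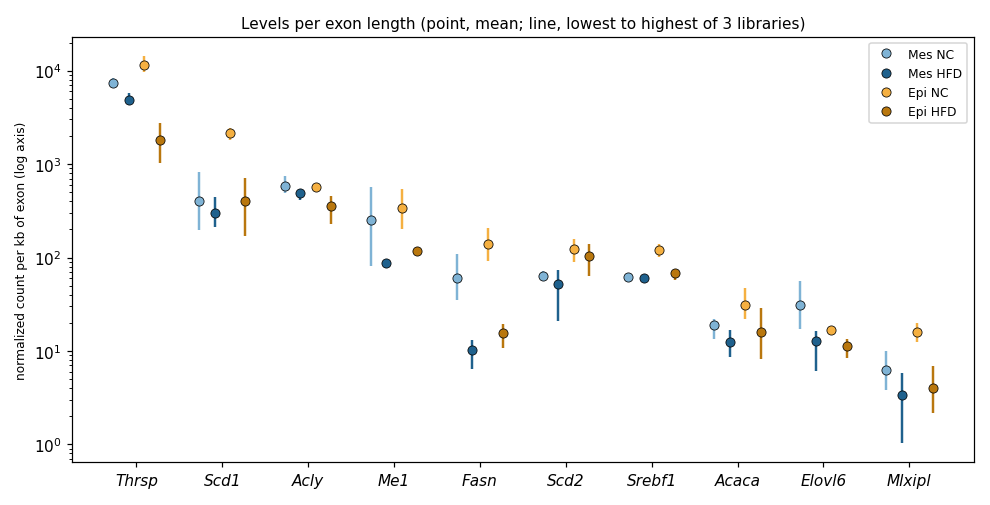
Mean normalized count per kilobase of exon for each gene and group on a log axis, with lines from the lowest to the highest of 3 libraries. Thrsp is the highest of the 10 in each group (11599 in Epi NC) and Mlxipl the lowest (16.1 in Epi NC).

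For no member was the nearest gene in profile another member, though members were few among the genes compared. Mlxipl, with a mean under 100, was not among those and could not be a neighbour. Likeness was measured as the root mean square difference of log2(normalized count + 1) profiles centred on their own mean, over the 12 libraries and 9907 genes with a mean of at least 100, so that smaller is more alike. The genes nearest to Fasn were Gsta3 (0.88), Me1 (0.92), Scd1 (0.99), Agpat2 (1.01) and Slc2a4 (1.01), where the spread of Fasn about its own mean was 1.57. Scd1 lay nearest to Cdo1 (0.35), Dgat2 (0.44) and Retn (0.48), and Srebf1 to Pdha1 (0.16), Csrp1 (0.16) and Echs1 (0.17). Me1 lay nearest to Acss2 (0.52), and Thrsp to Cd200 (0.62). Among pairs of members, Acly and Srebf1 were the closest, at 0.49. Genes with a small spread have small differences by construction, so values are to be read against each gene's own spread, which was 1.39 for Scd1 and 0.43 for Srebf1. Because profiles were not scaled, this measure cannot show whether the members share one pattern at different sizes.

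Other genes of the pathway, taken from lists that hold no member, showed no call with diet in either tissue in limma. Of 13 carbon and NADPH supply genes, 11 tested elongation and desaturation genes, 23 regulators, 12 genes of fatty acid activation and use, and 12 sterol synthesis genes, limma called 0 in either diet contrast and in the interaction, and edgeR also called 0. At an unadjusted p under 0.05, of these 71 genes 4 were higher and 2 lower with diet in mesentery, 1 higher and 10 lower with diet in epididymal fat, and 1 higher and 7 lower in the interaction. Over all 22238 genes tested the shares at that p in either direction were 6.15%, 6.94% and 4.71%. By direction these were 781 genes higher and 586 lower, 855 higher and 688 lower, and 459 higher and 588 lower, in the same order. DESeq2 called 5 of them lower with diet in epididymal fat, namely Agpat2, Dgat2, Lpin1, Pnpla3 and Pparg, where it called 2.56% of all genes, and Pparg in the interaction. In epididymal fat, 11 of the 12 activation and use genes were lower by sign on high fat diet (median -0.61), as were 19 of the 23 regulators (median -0.28), while 10 of the 12 sterol synthesis genes were higher (median 0.30), beside the median of 0.10 over all genes. The median of the carbon and NADPH list was 0.10 and that of the elongation list -0.23. Between tissues on chow, where 7.32% of all genes were called higher and 5.47% lower, 5 of the 12 activation and use genes were higher in epididymal fat, among them Pnpla3 (3.28, SE 0.55) and Dgat2, the last enzyme of triglyceride synthesis (3.16, SE 0.58). In the same contrast 3 regulators were higher, namely Cebpa (2.56), Nr1h3, which encodes the oxysterol receptor LXR alpha (2.49), and Pparg, the adipogenic nuclear receptor (1.99), and 1, Acacb, was lower (-1.33). Acacb is the mitochondrial acetyl-CoA carboxylase, whose product restrains fatty acid oxidation. Of the carbon and NADPH genes on chow 4 were higher, namely Slc25a1, the citrate carrier (1.24), Idh1 (1.20), G6pdx (1.20) and Mdh1 (0.92), and Me3 was lower (-2.10), and of the elongation genes 3 were higher, led by Fads2 (2.17). On high fat diet, where 4.91% of all genes were called higher and 3.43% lower, Idh1 (1.48), G6pdx (1.33), Pgd (0.98) and Tkt (0.88), which make NADPH or feed its pathway, were higher in epididymal fat, as were Fads2 (1.48), Nr1h3 (1.47) and Acsl3 (1.17), and Acacb was lower (-1.34). Srebf2, the paralog of Srebf1 that governs sterol genes, was called in no contrast and stood at 0.31 (SE 0.32) with diet in epididymal fat.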

How the data were processed

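The authors deposited 1 table of normalized counts per gene, a signal never below 0, for 12 libraries (per the file headers). The submitters' processing notes name STAR 2.7.9a, featureCounts, Subread, DESeq2 1.34.0 and mm39. Use of strand and the annotation are not given in the sources used here. Each library's values were whole reads divided by 1 factor (100% of values, within 1e-06), and the factors equalled median-of-ratios size factors, so depth was recovered. The lowest gene total was 51 reads, and 3 reads are worth 2.12 to 4.22 normalized counts, which covers counting error only.

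Tests used limma 3.58.1 under R 4.3.3, fitted to log2 values with a pseudocount of 1, for the 22238 genes with a mean of at least 10, with 4 group means, 5 contrasts and Benjamini-Hochberg adjustment over all genes at 0.05. A fold change on this scale understates changes of low genes. All 10 members passed the filter. The code was tested on simulated data. The alternatives, 21 in number, were another pseudocount, other filters, another scaling, edgeR 4.0.16 and DESeq2 1.42.0 on recovered reads, a replicate block, a number-range term, fewer libraries, and 12 fits that each left out 1 library. Groups came from the sample titles.

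All 10 members are named. Other genes are named from the pathway lists where they passed in a contrast (up to 4 per list and contrast, by size), as copies of members, or as the genes nearest in profile. Adipoq and Cfd were named after their values were seen, as leading adipocyte markers. Cidec, Plin1 and the adipocyte markers called by DESeq2 with diet in mesentery were also named after their values were seen. The members and lists were chosen with earlier results of these data known.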

Additional observations from a re-analysis of the deposited data

How the results depend on the processing

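No member's called difference changed sign or lost its call under any of the 21 alternatives: of 1045 alternative values of the 50 member differences, 1007 kept direction and side of the threshold or moved by less than the spread, 19 gained a call and 19 moved by more than the spread. DESeq2 called 1 member with diet in mesentery (0.683% of all genes), 4 with diet in epididymal fat (2.56%, adding Scd1 and Srebf1, adjusted p 0.0218 and 0.00119) and 1 in the interaction (0.592%). With the libraries numbered 50 to 53 only, 4 members passed between tissues on chow (23.3% of all genes) and 3 on high fat diet (14.0%). Leaving out 1 library in turn gave 2 to 4 members between tissues on chow (6.7% to 15.4% of all genes). It gave 2 to 3 with diet in epididymal fat (0.107% to 0.825%) and 0 to 1 in the interaction (0.00443% to 0.0839%). At every step it gave 0 with diet in mesentery (0.00452% to 0.168%) and 1 between tissues on high fat diet (3.23% to 11.8%). The cause was not tested in any of these cases. edgeR gave 0, 2, 2, 1 and 0 members in the order of the diet contrasts (mesentery, then fat), the tissue contrasts (chow, then high fat diet) and the interaction. Of all genes it called 0.0045%, 0.13%, 8.92%, 4.59% and 0.0045% in the same order. Mlxipl was not tested with a mean of at least 50.

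The labels do not say that a number marks shared mice. With the replicate block (letter for diet, number for tissue and interaction) the counts were 0, 2, 3, 1 and 0 in that order, the third with Fasn added (limma adjusted p = 0.0235). The shares of all genes called with this block were 0.018%, 0.468%, 12.7%, 8.5% and 0.00899% in that order. Residual correlations were taken on deviations from group means. Between the diets, libraries A, B and C of the same letter had -0.15, 0.12 and 0.04 in mesentery. In epididymal fat they had -0.68, 0.44 and -0.65. Same-numbered libraries of the 2 tissues had residual correlations of 0.03, 0.53 and 0.58 on chow and -0.15, 0.15 and -0.11 on high fat diet. These mixed values cannot settle whether numbers or letters mark pairs, and the main fit used neither. With 3 libraries a group, an exact permutation test cannot go below 0.1, and Mlxipl, with as few as 4 reads, is the member that depth limits most.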
